A study of Homo sapiens with 24 samples.

Results

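The comparison described here is that of HL60 cells given the combinatorial treatment, 5-Aza-CdR with clorgyline, with HL60 cells given clorgyline alone, so that it gives what 5-Aza-CdR added in cells that were under clorgyline in both arms. It rests on 4 expression arrays of the 24 in the series, 2 per arm, chosen by their sample titles. The difference itself uses none of the untreated arrays, but the spread behind its p values comes from all 8 HL60 arrays, untreated ones included. HL60 is a human promyelocytic leukemia cell line. The combinatorial cells received 0.1 µM 5-Aza-CdR for 24 hours and 10 µM clorgyline, the cells of the other arm 10 µM clorgyline without 5-Aza-CdR, and all were sampled at day 18. Also used were 2 arrays of HL60 cells given 0.1 µM 5-Aza-CdR alone, 2 arrays of untreated HL60 control cells and, for the difference between cell lines, arrays of the bladder carcinoma cell line T24, which were 2 of combinatorial cells (1 µM 5-Aza-CdR for 24 hours and 10 µM clorgyline) and 2 of cells with 10 µM clorgyline alone, also at day 18. The spread of the fit over both lines also took in the untreated T24 arrays and those of T24 cells given 1 µM 5-Aza-CdR alone for 24 hours. An alternative fit of all 24 arrays added those labelled HCT116, a colon cancer cell line, at day 20. These were untreated or given 0.3 µM 5-Aza-CdR for 24 hours, 10 µM clorgyline or both. One established line stands for leukemia here. Nothing says that the 2 arrays of a condition came from separate cultures, so that the spread behind each p value may be a technical one.

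5-Aza-CdR (decitabine) is a cytidine analog that is built into DNA and traps DNA methyltransferases, so that methylation is lost as cells divide and genes silenced by promoter methylation can be expressed again. Clorgyline was made as an inhibitor of monoamine oxidase A and also inhibits LSD1 (KDM1A), the demethylase that removes methyl groups from lysine 4 of histone H3. Cancer testis antigens, which are normally made in germ cells, are a class of genes known to be held silent by promoter methylation in many tumours, and promyelocytes are the precursors that make the granule proteins of neutrophils.

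Values are log2 signals, and a log2 difference of 1 is a 2-fold change. The HL60 values ran from 6.91 to 15.9996 with a median of 7.53, and a signal under 7.63, the 60th percentile of the probe means, is called near background, where a fold change is compressed. The 2 combinatorial arrays correlated at r = 0.994 and the 2 clorgyline arrays at r = 0.995 over all probes. The labelled cell type was checked on markers. Of 9 promyelocyte markers measured, 0 were near background in every condition. Myeloperoxidase (MPO) had 15.88 and 15.95 under the combinatorial treatment, against 15.94 and 15.85 under clorgyline. ELANE, another of the 9, was near background under clorgyline (7.49 and 7.42) and in control cells (7.28 and 7.57). All 6 epithelial markers were near background in every condition. Arrays share 1 distribution of values after normalization, so fewer cells that express a gene cannot be told apart from less RNA per cell, and a change in total RNA could not be seen.

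Of 47229 transcripts (probes) tested with limma, 337 (0.714%) were higher and 118 (0.25%) lower under the combinatorial treatment than under clorgyline, where a transcript counts if its p before adjustment is under 0.01 and it changes by over 2-fold. All 337 and 117 of the 118 also had a Benjamini-Hochberg adjusted p under 0.05. In all of them the 2 combinatorial arrays lay on one side of the 2 clorgyline arrays. The choice by p and fold change on these same arrays largely fixes that, so it adds no support. The same holds for single genes below that were named for a large difference and are described as not overlapping. The transcripts that were higher had a median log2 difference of 1.28, with 64 over 4-fold and 19 over 16-fold, whereas only 5 of those that were lower passed 4-fold. Under clorgyline, 93 of the 337 were near background. Without combinatorial replicate 2, 184 transcripts were lower. With the brightest probe standing for each of 20045 genes, 1461 genes (7.29%) rose and 1449 (7.23%) fell at an adjusted p under 0.05, the limit used for genes from here on. The median over all genes was -0.01. The shares of 7.29% and 7.23% are the baseline for every list count below.

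The largest differences belonged to the GAGE family, cancer testis antigens encoded by near-identical gene copies on the X chromosome. GAGE12G had signals of 13.81 and 13.99 under the combinatorial treatment, against 7.46 and 7.44 under clorgyline. Without clorgyline it had 13.59 and 13.88 in 5-Aza-CdR cells, against 7.64 and 7.44 in control cells. The clorgyline arrays were thus near background and did not overlap with the combinatorial arrays, with a difference of 6.45 ± 0.11 (SE, limma, adjusted p = 2.32e-12), or 87.3-fold. GAGE4 (6.48) and GAGE12C (6.33) were next to it, followed by GAGE12H (5.94), GAGE12J (5.77), GAGE12F (5.26), GAGE12B (5.01), GAGE2A (4.43) and GAGE7 (3.44), and 11 of 12 GAGE genes measured rose. Probes for so similar copies cannot say which copy the RNA came from.

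Other antigens followed at lower signals, and those named next (PAGE5, TKTL1 and VCX, which are X-linked, and CTCFL) lie outside the rule for named genes and were chosen after their values were seen. PAGE5 had 10.24 and 10.15 under the combinatorial treatment, against 7.29 and 7.37 under clorgyline (difference 2.87 ± 0.09, adjusted p = 1.26e-09). TKTL1, a transketolase-like enzyme, had 10.28 and 10.34, against 7.60 and 7.59 under clorgyline (2.72 ± 0.09, adjusted p = 1.26e-09). VCX rose by 2.47, and CTCFL (BORIS), the germ cell paralog of CTCF and encoded on chromosome 20, by 1.85. Of 109 cancer testis antigens measured, 34 rose and 0 fell, 23 of them past 2-fold, while 75 did not pass the test and 55 were near background in every condition, and the list's median was 0.09. Genes past both limits and higher numbered 219 (1.09% of genes) and genes past both limits and lower 82 (0.409%). Of the 217 higher ones with a known chromosome, 26 (11.98%) were on the X chromosome, which carries 4.29% of all genes measured, and without the cancer testis antigens 6 of 196 (3.06%) were.

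The promoter of GAGE12G is shown because its signal carried the largest difference that maps to a known chromosome, and that of CLC, described further on, because it is the contrasting case of a gene with few CpG sites. Both are RefSeq windows of assembly GRCh38.p14 from 250 bases before to 50 bases after the start site, chrX:49570147-49570446 on the plus strand and chr19:39737980-39738279 on the minus strand, with each CpG in capitals.
GAGE12G: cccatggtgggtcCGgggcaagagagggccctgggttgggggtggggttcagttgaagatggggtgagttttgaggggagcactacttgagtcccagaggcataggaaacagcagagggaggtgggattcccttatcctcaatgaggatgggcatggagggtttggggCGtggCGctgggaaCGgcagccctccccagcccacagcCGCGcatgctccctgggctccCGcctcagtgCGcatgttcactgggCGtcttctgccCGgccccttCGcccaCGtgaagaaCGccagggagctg
CLC: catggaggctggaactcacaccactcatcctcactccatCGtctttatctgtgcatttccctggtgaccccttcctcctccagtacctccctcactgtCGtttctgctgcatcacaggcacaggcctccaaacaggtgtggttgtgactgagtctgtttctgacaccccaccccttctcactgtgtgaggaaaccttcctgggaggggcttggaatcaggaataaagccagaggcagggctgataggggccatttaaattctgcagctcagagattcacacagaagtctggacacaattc
The GAGE12G window holds 13 CpG sites and the CLC window 2, beside a median of 13 over the 27305 windows of the reference (1 per symbol). The median over the 15033 measured genes that have a window is 22. Of the 11 GAGE genes that rose, 9 had a window, with 12 or 13 CpG sites each and only 3 distinct sequences among them. All 9 hold the E-box CACGTG, a palindrome that 7.27% of all windows and 8.53% of those of measured genes hold. Windows were at hand for 166 of the 219 genes past both limits and higher (75.8%), too few for a comparison of CpG content over the set, which is void.

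Some germ cell genes outside the antigen list rose as well. Of 63 germline and meiosis genes, 15 (23.8%) rose and 4 (6.35%) fell, beside 7.29% and 7.23% of all genes, with a median of -0.001. The share that fell was near that of all genes. The number that fell was 8 in a fit of all 24 arrays, 1 with a robust spread, and 0 to 2 when a combinatorial or clorgyline array was left out (0 without combinatorial replicate 1 or clorgyline replicate 2, 1 without combinatorial replicate 2, 2 without clorgyline replicate 1). MAEL, which acts in the piRNA pathway that silences transposons, had 9.17 and 9.07 under the combinatorial treatment, against 7.44 and 7.32 under clorgyline (1.74 ± 0.09, adjusted p = 1.49e-07). The testis tubulin TUBA3D rose by 1.92 and the meiotic chromosome axis gene HORMAD1 by 1.43. PIWIL2, a piRNA-binding Argonaute protein that lies outside the rule for named genes and was chosen after its value was seen, rose by 1.36. H19, the maternally expressed noncoding RNA, had 10.26 and 10.23, against 7.25 and 7.36 under clorgyline (2.94 ± 0.09, adjusted p = 4.86e-10), with no overlap between arms.

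**Figure D1:**
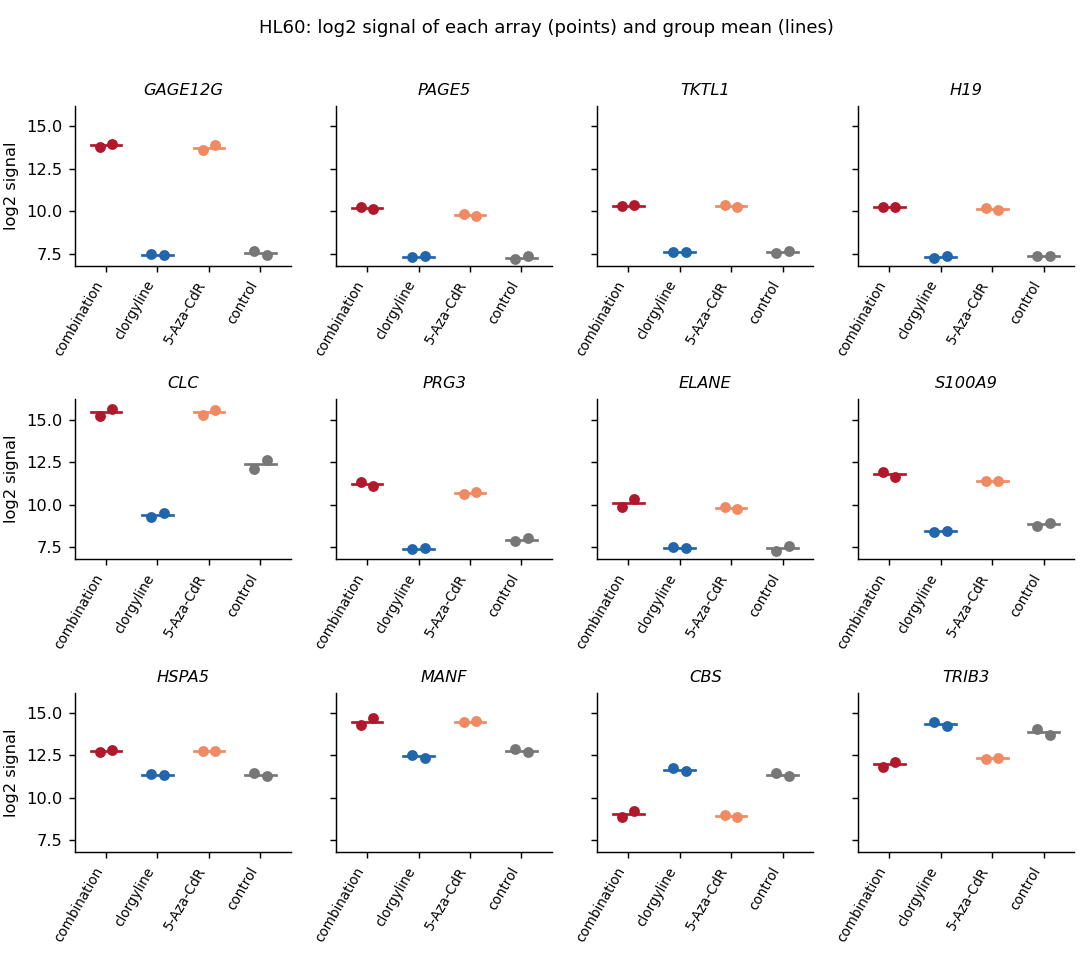
Log2 signal (vertical axis) of 12 genes on each HL60 array (points, 2 per condition), with the group mean as a line, for the combinatorial treatment, clorgyline, 5-Aza-CdR and control. GAGE12G, PAGE5, TKTL1, H19, CLC, PRG3, ELANE, S100A9, HSPA5 and MANF lie higher in the combinatorial than in the clorgyline arrays, and CBS and TRIB3 lower.

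Genes of granulocytes formed the next group. CLC, which encodes the Charcot-Leyden crystal protein of eosinophils and basophils, had 15.24 and 15.61 under the combinatorial treatment, against 9.27 and 9.504 under clorgyline. In cells without clorgyline it had 15.28 and 15.59 with 5-Aza-CdR, against 12.10 and 12.62 in control cells. The combinatorial and 5-Aza-CdR arrays lay at one level and the clorgyline arrays lowest of all, and the difference was 6.04 ± 0.17 (adjusted p = 3.73e-10). That upper level is near the top of the measured range, where differences can be compressed. PRG3, an eosinophil granule protein, had 11.32 and 11.10, against 7.36 and 7.44 under clorgyline (3.81 ± 0.10, adjusted p = 2.09e-10). RNASE2, the eosinophil-derived neurotoxin, rose by 2.61 and HDC, which makes histamine, by 2.21. Of 23 eosinophil, basophil and mast cell genes, 10 rose and 0 fell, with a median of 0.21. PRG2, the major basic protein and a marker outside the rule, differed by 0.45 (adjusted p = 0.00992, lost in 2 of 16 alternatives), and with signals of 15.9996 and 15.94 under the combinatorial treatment against 15.48 and 15.56 under clorgyline it lay at the top of the measured range, where differences can be compressed too.

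Most of the neutrophil granule proteins measured rose. ELANE, neutrophil elastase, had 9.83 and 10.32 under the combinatorial treatment, against 7.49 and 7.42 under clorgyline (2.62 ± 0.14, adjusted p = 2.74e-07). DEFA1B (3.42, outside the list), DEFA3 (3.13) and DEFA1 (2.89), defensins whose near-identical copies probes cannot tell apart, rose further. MPO differed by 0.02 (adjusted p = 0.96). Its signals, 15.88 and 15.95 against 15.94 and 15.85 under clorgyline, lay at the top of the measured range, where a rise might not show. Of 37 granule proteins 24 rose, 0 fell and 13 did not pass the test, with a median of 0.46 and a range of -0.16 to 3.13. Past 2-fold were 12, and 11 were near background in every condition. Without combinatorial replicate 1 the count was 15. The calcium-binding S100A9, abundant in neutrophils and monocytes, had 11.92 and 11.62, against 8.41 and 8.44 under clorgyline (3.35 ± 0.11, adjusted p = 1.26e-09), and its partner S100A8 rose by 2.59. The S100 and annexin genes rose in 36.7% and fell in 6.67% of cases, beside 7.29% and 7.23% of all genes. Of 30 S100 and annexin genes, 11 rose and 2 fell, though 1 fell without any one of the combinatorial or clorgyline arrays and 4 in a fit of all 24 arrays.

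Among 69 myeloid surface receptor and NADPH oxidase genes, 18 rose and 4 fell, against 28 and 7 in a fit of all 24 arrays, and 2 fell without clorgyline replicate 1 or combinatorial replicate 1. In the main fit 26.1% of the 69 rose and 5.80% fell, beside 7.29% and 7.23% of all genes, so the share that fell was near that of all genes. CD93, a receptor of early myeloid cells, rose by 2.88 and the oxidase subunit NCF1 by 1.47. The G-CSF receptor gene CSF3R, a marker outside the rule for named genes, fell by 0.97. Marker lists put these values beside those of other cell types. Of 9 promyelocyte markers measured 5 rose and 2 fell, of 6 eosinophil, basophil and mast cell markers 6 rose, of 5 monocyte markers 1 rose (CSF1R, 0.38, a marker also outside the rule and lost in 3 of 16 alternatives) and of 4 erythroid markers 0 did. The mean over the eosinophil, basophil and mast cell markers was 11.06 and 11.001 under the combinatorial treatment, against 9.07 and 9.18 under clorgyline, and over the monocyte markers 7.66 and 7.76, against 7.68 and 7.68. Whether the share of cells of a type differed between the arms was not tested. CD3D, a T cell receptor subunit, rose by 1.65. Of 58 lymphoid genes 6 (10.3%) rose and 3 (5.17%) fell (10 rose in a fit of all 24 arrays). These shares are near those of all genes, 7.29% and 7.23%.

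Of 39 myeloid transcription factors, 10 rose and 10 fell. CEBPE, which drives granule gene expression in late granulocyte precursors, had 12.19 and 12.004 under the combinatorial treatment, against 10.94 and 10.59 under clorgyline (1.33 ± 0.13, adjusted p = 3.18e-05). CEBPB fell by 0.98, LYL1 by 0.96 and KLF2, described below with the immediate early genes, by 1.19. The number that rose was 4 without combinatorial replicate 1 and 5 without clorgyline replicate 1 or clorgyline replicate 2.

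TRPM4, a calcium-activated cation channel that belongs to no list, had 11.44 and 11.46 under the combinatorial treatment, against 7.99 and 7.93 under clorgyline (3.49 ± 0.08, adjusted p = 5.37e-11). The metallothioneins, which bind zinc and copper, held 4 genes that rose and 0 that fell among 13, led by MT1X (1.69) and MT2A (1.56). Cholesterol synthesis genes rose in 15 of 33 cases and fell in 2, with a median of 0.30. LSS, which makes lanosterol, had 11.97 and 11.92, against 10.79 and 10.78 under clorgyline (1.16 ± 0.09, adjusted p = 7.48e-06), SQLE, squalene epoxidase, rose by 1.08 and ACAT2 by 1.20. In a fit over all 24 arrays 8 of the 33 rose, and 1 fell with a robust spread or without combinatorial replicate 1, clorgyline replicate 1 or 2, or control replicate 1 or 2. Of 61 actin and tubulin cytoskeleton genes 18 rose and 7 fell, while 11 rose without combinatorial replicate 1 and 4 fell without it or without clorgyline replicate 1. Small nucleolar and small nuclear RNAs rose in 13 of 63 cases, but in 6 without clorgyline replicate 1 and in 7 without combinatorial replicate 1.

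**Figure D2:**
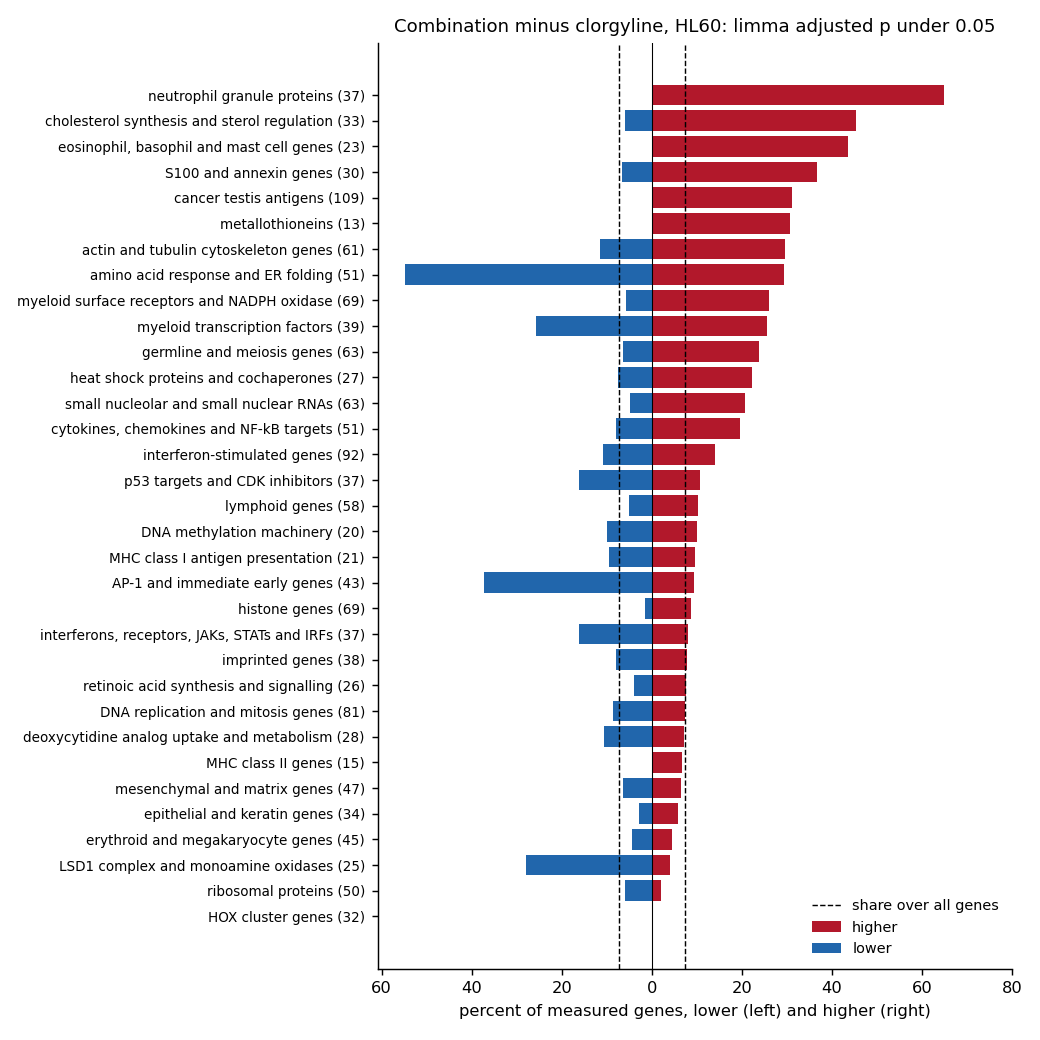
Share of the measured genes of each list (number in brackets) that rose (right) or fell (left) at a limma adjusted p under 0.05 in combinatorial against clorgyline arrays of HL60, in percent. Dashed lines mark the shares over all genes, 7.29% and 7.23%, and granule proteins and the amino acid response and ER folding genes reach far beyond them.

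Of the 10 genes that fell most, CBS, TRIB3, STC2 and DDIT4 were on the list for the response to amino acid shortage, in which ATF4 switches on genes for amino acid synthesis, import and tRNA charging. CBS, cystathionine beta-synthase, had 8.86 and 9.25 under the combinatorial treatment, against 11.76 and 11.58 under clorgyline (-2.62 ± 0.13, adjusted p = 7.58e-08). TRIB3, a pseudokinase that ATF4 induces, had 11.83 and 12.13, against 14.47 and 14.24 under clorgyline (-2.37 ± 0.14, adjusted p = 4.7e-07). INHBE, an inhibin beta subunit that belongs to no list, had 8.33 and 8.54, against 10.98 and 10.92 under clorgyline (-2.51 ± 0.09, adjusted p = 5.32e-09). In each of the 3 genes the arms did not overlap, and the clorgyline arrays were well above background. STC2 fell by 1.86 and DDIT4, an inhibitor of mTORC1, by 1.75. The others of the 10 also belong to no list. They were ASS1, argininosuccinate synthase (-1.91), MFAP4, a protein of extracellular microfibrils (-2.11), RBCK1, a subunit of the linear ubiquitin ligase (-1.87), OSCAR, a receptor of myeloid cells and osteoclasts (-1.63), and HINT3, a histidine triad protein (-1.96, adjusted p = 0.00228, lost with a robust spread). MFAP4 had 9.65 and 9.70 under the combinatorial treatment, against 12.03 and 11.54 under clorgyline, with no overlap between arms. ASNS, asparagine synthetase, and MTHFD2, of mitochondrial folate metabolism, fell by 1.60 and 1.35, and were chosen after their values were seen. ATF4 itself, chosen in the same way, differed by -0.18 (adjusted p = 0.338) at signals of 15.39 and 15.22, against 15.54 and 15.43 under clorgyline.

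The list of 51 amino acid response and ER folding genes split in 2 directions, with 28 genes that fell, 15 that rose and 8 that did not pass the test, and a median of -0.61. Those that fell included the enzymes CBS and ASNS, the alanyl-tRNA synthetase AARS1, the pseudokinase TRIB3, the transcription factor ATF3, CHAC1, which degrades glutathione, and PPP1R15A, a phosphatase subunit that ends the stress response (-0.90), and those that rose included the ER chaperones HSPA5 and CALR. MANF, an ER-resident secreted factor, had 14.28 and 14.69 under the combinatorial treatment, against 12.54 and 12.37 under clorgyline (2.03 ± 0.13, adjusted p = 8.21e-07). SDF2L1, a cofactor of ER chaperones, rose by 2.04 and CALR, calreticulin, by 1.56. HSPA5 (BiP), the main ER chaperone and chosen after its value was seen, had 12.72 and 12.81, against 11.39 and 11.33 under clorgyline (1.41 ± 0.09, adjusted p = 1.46e-06). DDIT3 (CHOP), a factor that amino acid shortage and ER stress both induce, was among those that rose (0.74, adjusted p = 0.00189), and XBP1, a factor of the ER stress response, differed by 0.06 (adjusted p = 0.849), both chosen after their values were seen. The counts were 14 to 15 higher and 27 to 28 lower when each HL60 array was left out in turn.

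**Figure D3:**
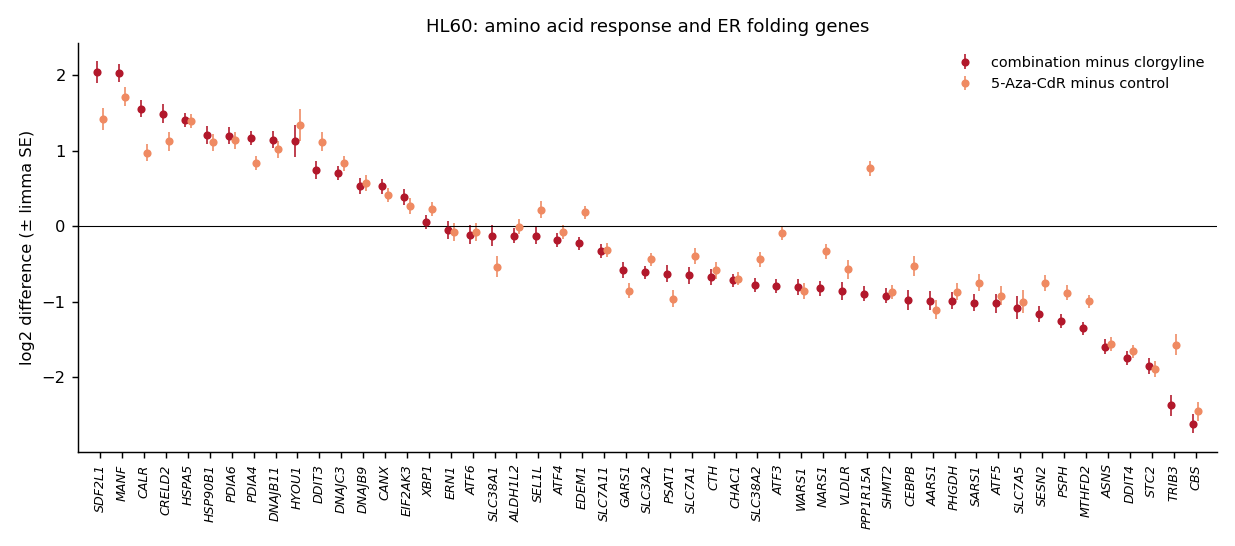
Log2 differences (vertical axis, ± limma SE) of the 51 amino acid response and ER folding genes in HL60, combinatorial minus clorgyline arrays and 5-Aza-CdR minus control arrays, ordered by the first. Both sets of points run downwards from SDF2L1 and MANF at the left to TRIB3 and CBS at the right, and PPP1R15A stands apart, at -0.90 in the first and 0.77 in the second.

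Promoter stretches with a response element are shown because they give the sequence of members that moved in each of the 2 directions. The ER stress response element was searched as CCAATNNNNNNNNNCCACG on both strands, and its last letters can overlap an E-box, in the RefSeq windows of GRCh38.p14. It was chosen after the rise of HSPA5 and CALR was seen. It is in capitals in these stretches of HSPA5 (chr9:125241371-125241429, minus strand), CRELD2 (chr22:49918534-49918592, plus strand), PDIA6 (chr2:10812833-10812891, minus strand) and CALR (chr19:12938364-12938422, plus strand).
HSPA5: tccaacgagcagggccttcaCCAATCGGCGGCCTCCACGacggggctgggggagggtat
CRELD2: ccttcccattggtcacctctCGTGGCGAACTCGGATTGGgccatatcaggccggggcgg
PDIA6: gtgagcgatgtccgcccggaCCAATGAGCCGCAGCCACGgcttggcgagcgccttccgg
CALR: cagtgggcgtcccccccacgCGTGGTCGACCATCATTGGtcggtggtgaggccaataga
Each stretch is written along its gene's strand, and in CRELD2 and CALR the element reads on the opposite strand. It begins 66 bases before the start site in HSPA5, 80 in CRELD2, 86 in PDIA6 and 225 in CALR. Of all 27305 windows 22 (0.0806%) hold it, and of the 15033 genes measured that have a window 19 do. Of those 19, 6 rose (CALR 1.56, CRELD2 1.49, HSPA5 1.41, HSP90B1 1.21, PDIA6 1.20 and FICD 0.68), 1 fell (EIF2A, -0.81) and 12 did not pass the test. These genes other than CALR were chosen after their values were seen. MANF and SDF2L1 have no match in their windows.

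The amino acid response element was searched as TGATGNAA on both strands. It is in capitals in CHAC1 (chr15:40953242-40953289, plus strand), ATF3 (chr1:212565196-212565243, plus strand) and AARS1 (chr16:70289666-70289713, minus strand), which fell by 0.72, 0.79 and 0.99 and were likewise chosen after their values were seen.
CHAC1: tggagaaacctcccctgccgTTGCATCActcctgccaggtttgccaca
ATF3: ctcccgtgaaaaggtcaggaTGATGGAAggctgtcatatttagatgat
AARS1: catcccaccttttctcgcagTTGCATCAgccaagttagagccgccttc
In CHAC1 and AARS1 it reads on the opposite strand of the gene. Of 25 genes of the list that fell and have a window, 5 hold the element. It is in 3.75% of all windows and in 2.66% of those of measured genes. Over all measured genes with the element, 400 in number, 25 rose and 29 fell, with a median of -0.02. These shares are near the 7.29% and 7.23% of all genes. The windows of CBS and TRIB3 have no match. Only 1 window per symbol was searched, which need not be that of its main start site.

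Since 5-Aza-CdR was also given without clorgyline, the same step could be measured on 4 other arrays, 5-Aza-CdR minus control. These share no array with the combinatorial comparison, but both differences came from the same fit and used the same spread for each transcript. In 5-Aza-CdR minus control, 1055 genes (5.26%) rose and 943 (4.7%) fell. Among the 337 transcripts higher under the combinatorial treatment than under clorgyline, 335 had the same sign on the other arrays and 314 also had an adjusted p under 0.05 there, beside 3.56% of all transcripts. Among the 118 lower ones, 113 had the same sign and 103 also passed, beside 3.12% of all transcripts. A transcript with a small spread was favoured to pass in both comparisons, so these passing counts are not an independent check. For the same reason the shares of all transcripts are not a like baseline. The sign of a difference does not rest on that spread, and over all probes 60.3% had the same sign in both comparisons. Of 2063 transcripts that passed in both, 2044 (99.1%) had the same sign. Past the 2-fold limit as well, 152 transcripts were higher in both, which is 45.1% of the 337 and 76% of the 200 of 5-Aza-CdR alone, and 50 were lower in both, which is 42.4% of the 118 and 28.1% of the 178. The 337 had a median difference of 1.28 with clorgyline and 0.95 without it. The 4 HL60 conditions were normalized together.

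**Figure D4:**
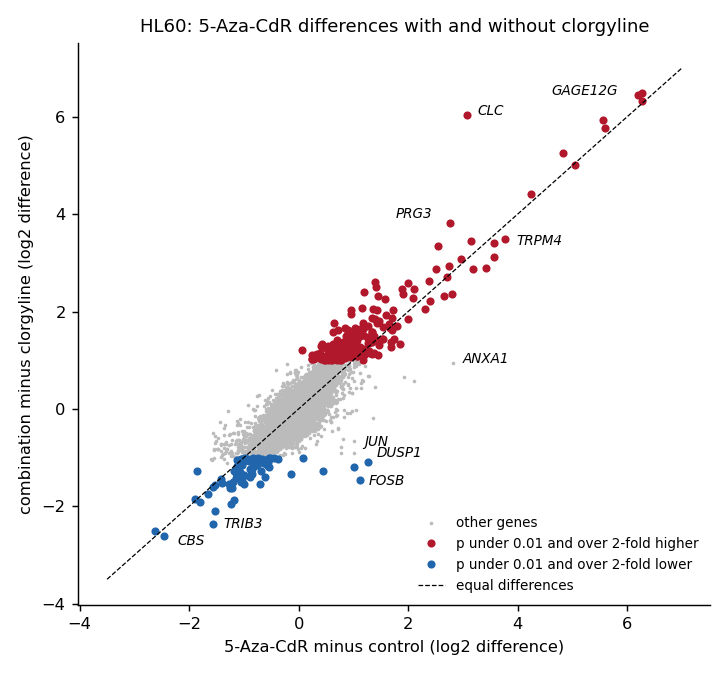
Log2 differences of 20045 genes in HL60, combinatorial minus clorgyline (vertical axis) against 5-Aza-CdR minus control (horizontal axis), with genes past both limits in the combinatorial comparison in colour and a dashed line where the 2 are equal. GAGE12G, TRPM4 and CBS lie near the line, CLC above it, and ANXA1, FOSB, JUN and DUSP1 below it.

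The excess, which is the difference under clorgyline minus the difference without it, was tested as an interaction. At p under 0.01 and a 2-fold excess, 22 transcripts (0.0466%) had a positive and 27 (0.0572%) a negative excess. The sum of 49 was 44 to 167 when each array was left out in turn, with 167 without 5-Aza-CdR replicate 1, 90 without combinatorial replicate 2 and 74 without control replicate 1. At an adjusted p under 0.05 25 genes (0.125%) had a positive and 35 (0.175%) a negative one. None of the 109 cancer testis antigens was among them, and the excess of GAGE12G was 0.25 ± 0.16 (adjusted p = 0.811).

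CLC had the largest positive excess, 2.96 ± 0.24 (adjusted p = 0.000287). Its levels with 5-Aza-CdR were alike with and without clorgyline, and clorgyline alone differed from control by -2.97, a value that shares the clorgyline arrays with the combinatorial comparison. The levels with 5-Aza-CdR lay near the top of the measured range, where a difference between them might not show, so the size of the excess is uncertain. RNASE2 had 12.54 and 12.43 under the combinatorial treatment, against 9.65 and 10.10 under clorgyline, and 11.90 and 11.95 with 5-Aza-CdR, against 10.52 and 10.52 in control cells (excess 1.20 ± 0.17, adjusted p = 0.0221). PRG3 had an excess of 1.04 (adjusted p = 0.0188), a call lost in 4 of 15 alternatives (adjusted p of up to 0.125), as was that of RNASE2 (up to 0.145), so that 3 of the 23 eosinophil, basophil and mast cell genes had a positive excess. The other genes with the largest positive excess were GANAB (1.23), an ER glucosidase subunit, RHEX (1.15), a regulator of erythroid expansion, and FKBP2 (1.14), an ER prolyl isomerase.

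Genes with a negative excess included AP-1 and other immediate early genes, which growth factors and stress induce within minutes. FOSB had 12.94 and 13.57 under the combinatorial treatment, against 14.84 and 14.57 under clorgyline. Without clorgyline it had 13.63 and 13.66 with 5-Aza-CdR, against 12.75 and 12.30 in control cells. It was thus lower with 5-Aza-CdR among cells under clorgyline (-1.45) and higher among cells without it (1.11), with an excess of -2.57 ± 0.26 (adjusted p = 0.00136). DUSP1, a MAP kinase phosphatase, had 12.29 and 12.43 under the combinatorial treatment, against 13.51 and 13.40 under clorgyline, and 11.76 and 11.63 with 5-Aza-CdR, against 10.55 and 10.31 in control cells (excess -2.36 ± 0.15, adjusted p = 7.25e-05). KLF2 (-2.20) and JUN (-1.91) also had opposite signs in the 2 comparisons, the call of JUN under clorgyline being lost without clorgyline replicate 2. ANXA1, annexin A1, rose in both comparisons, but by 0.94 under clorgyline and by 2.83 without it (excess -1.89, adjusted p = 0.000287).

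Of 43 AP-1 and immediate early genes, 16 (37.2%) fell and 4 (9.30%) rose under the combinatorial treatment relative to clorgyline, with a median of -0.16. The share that rose was near the 7.29% of all genes. With 5-Aza-CdR alone relative to control, 5 fell and 14 rose, and 9 had a negative excess. The number that rose under the combinatorial treatment was 1 without combinatorial replicate 1 and 2 with a robust spread or without clorgyline replicate 1, clorgyline replicate 2 or combinatorial replicate 2. With clorgyline alone relative to control 15 rose and 1 fell, beside 0.718% and 0.399% of all genes, on clorgyline arrays that both comparisons share. Of the 16 genes that passed in both 5-Aza-CdR comparisons with opposite signs, FOSB, DUSP1, KLF2, JUN and the heat shock gene HSPA1B had the largest excess, and PMVK, chosen after its value was seen, alone was higher in the combinatorial arrays (0.30, against -0.36 with 5-Aza-CdR alone). HSPA1B had 11.99 and 12.19 under the combinatorial treatment, against 13.40 and 13.35 under clorgyline, and its probe may also read its near-identical copy.

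**Figure D5:**
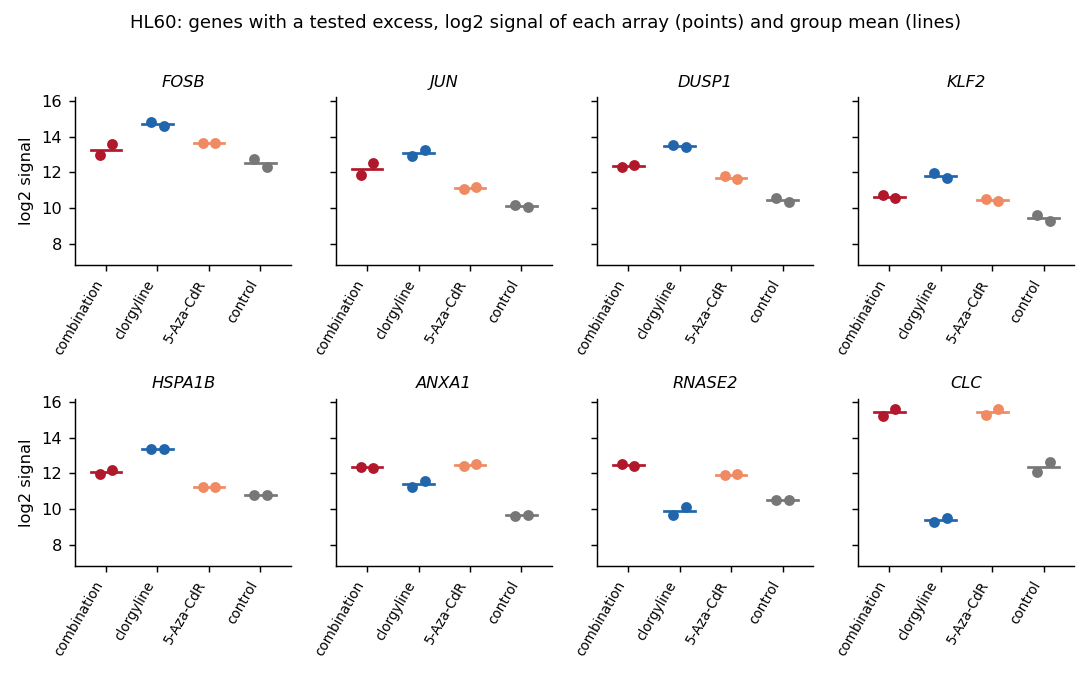
Log2 signal (vertical axis) of 8 genes with a tested excess on each HL60 array (points, 2 per condition), with the group mean as a line. In the immediate early genes and HSPA1B the clorgyline arrays lie highest, and in RNASE2 and CLC they lie lowest.

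Of the drugs' targets, KDM1A fell and DNMT1 did not pass the test. DNMT1, the maintenance methyltransferase that 5-Aza-CdR traps, had 13.72 and 14.19 under the combinatorial treatment, against 14.40 and 14.05 under clorgyline (-0.27 ± 0.16, adjusted p = 0.459), and the arms overlapped. KDM1A had 11.93 and 12.02, against 12.41 and 12.37 under clorgyline (-0.41 ± 0.09, adjusted p = 0.0104), a call that was lost in 4 of 16 alternatives. Monoamine oxidase A (MAOA, 7.48 and 7.41 under the combinatorial treatment, against 7.38 and 7.33 under clorgyline) was near background in both arms. Of 25 LSD1 complex and monoamine oxidase genes 7 fell and 1 rose, with PHF21A (BHC80) lowest at -1.01. Without combinatorial replicate 1, 4 fell and 0 rose, and 0 rose either without any one of the clorgyline or control arrays or in a fit of the 2 arms alone. DCK, which activates 5-Aza-CdR by phosphorylation, differed by -0.15 (adjusted p = 0.697), and UHRF1, which guides DNMT1, by -0.18 (adjusted p = 0.613).

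Interferon-stimulated genes, which 5-Aza-CdR raises in many carcinoma cells, had members that rose and members that fell in HL60. Of 92 measured 13 (14.1%) rose and 10 (10.9%) fell, beside 7.29% and 7.23% of all genes, with a median of -0.03. MX2, an antiviral GTPase, had 9.16 and 9.15, against 7.69 and 7.47 under clorgyline (1.58 ± 0.10, adjusted p = 6.63e-07), and MNDA, a myeloid nuclear antigen, rose by 1.76. NT5C3A fell by 0.86. Without clorgyline replicate 2 or combinatorial replicate 1, 8 rose, and 4 fell without clorgyline replicate 1 and 5 without combinatorial replicate 1.

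In T24 cells the same step, combinatorial minus clorgyline, raised 361 genes (1.8%) and lowered 199 (0.993%). The difference between the steps in HL60 and T24 was tested in a fit over both cell lines, and 404 transcripts (0.855%) were higher and 324 (0.686%) lower in HL60 than in T24 at p under 0.01 and a 2-fold difference. Doses differed, 0.1 µM in HL60 and 1 µM in T24, so that cell line and dose cannot be told apart. Cancer testis antigens rose in both, 34 of 109 in HL60 and 43 in T24, and GAGE12G rose by 6.45 in HL60 and by 5.12 in T24. The lines were normalized separately and their lowest signals differ. In T24 GAGE12G had 13.17 and 13.25 under the combinatorial treatment, against 8.11 and 8.06 under clorgyline, and so started from a higher signal than in HL60 (7.46 and 7.44), for which reason no test of the difference is given. H19 rose by 2.94 in HL60 and by 3.04 in T24, where it had 11.36 and 10.91, against 8.12 and 8.07 under clorgyline.

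At an adjusted p under 0.05 the difference between lines was positive in 1206 genes (6.02%) and negative in 1229 (6.13%). It was positive in 17 and negative in 0 of the 37 neutrophil granule proteins, positive in 12 and negative in 24 of the 51 amino acid response and ER folding genes, and positive in 5 and negative in 26 of the 92 interferon-stimulated genes. The step in CLC was 6.04 in HL60 and 0.05 in T24, where its signal was 8.13 and 8.17 under the combinatorial treatment against 8.07 and 8.12 under clorgyline (difference 5.99, adjusted p = 1.94e-08). PRG3, DEFA1B, S100A4 and S100A9 had the next largest positive differences between lines, 3.85, 3.46, 3.38 and 3.33. Among the neutrophil granule proteins 24 of 37 rose in HL60 and 2 in T24, and among the amino acid response and ER folding genes 28 fell and 15 rose in HL60, against 5 and 2 in T24. CBS had a difference between lines of -2.78, TRIB3 of -2.52 and INHBE of -2.47. In T24, CBS had 8.15 and 8.23 under the combinatorial treatment, against 8.01 and 8.04 under clorgyline. INHBE had 8.14 and 8.13, against 8.21 and 8.14. These are about the signals of GAGE12G under clorgyline in T24 (8.11 and 8.06), so a fall of either gene could hardly show there. How many listed genes had so low a signal in T24 was not counted. Interferon-stimulated genes rose in 20 of 92 cases in T24, with 0 that fell. IFI27, an interferon-induced membrane protein, had 7.43 and 7.41 under the combinatorial treatment in HL60, against 7.48 and 7.49 under clorgyline, while it rose by 2.85 in T24 (difference -2.92, adjusted p = 6.58e-06).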

How the data were processed

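RNA of each sample was hybridised to an Illumina HumanHT-12 V4 bead array. The authors processed the HL60 arrays with lumi 2.8.0 and those of T24 with lumi 2.6.0, log2 transformed the bead intensities and applied Robust Spline Normalization within a cell line before they deposited the values. Background correction is not given in the sources used here, and no detection values were used. The deposited log2 values of the 8 HL60 arrays entered 1 linear model per probe (limma 3.58.1, R 4.3.3), in which each of the 4 conditions had its mean and 1 common spread, and p values were adjusted by Benjamini-Hochberg over all 47229 probes (2 with missing values were left out). T24 differences came from a fit of 16 arrays of both lines. Limits of p under 0.01 and 2-fold follow the study's methods. The script was tested on simulated data. Arrays have no read depth, and 2 of them per condition limit the precision.

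One probe stands for a gene, the brightest among 30113 probes with 1 symbol. The rule for named genes takes the 15 genes with the largest positive and the 10 with the largest negative difference at an adjusted p under 0.05, up to 4 genes of each of 33 lists (not all are printed), the 5 genes at each end of the excess and of the difference between lines, and fixed drug targets (some not printed). The comparison, the lists and the markers were chosen with earlier results of these data known. As alternatives, the limits were changed, dim probes were left out, arrays were quantile normalized again or shifted to the same median, the fit held 4 or 24 arrays, the spread was moderated robustly along a trend, replicate numbers served as a block, genes were reduced to their brightest probe, and arrays were dropped singly. Promoter windows are those of RefSeq (GRCh38.p14), matched by symbol to 15033 of 20045 genes. Windows on chromosome 8 were left out, so genes there count as having none. Of several windows for a symbol, that with the lowest coordinate was kept. HCT116 arrays entered only the fit of all 24.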

Additional observations from a re-analysis of the deposited data

Results flagged for a closer look

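The results named here differed between 2 settings of the same contrast by a test of that difference. The difference combinatorial minus clorgyline was unlike the difference 5-Aza-CdR minus control for 22 transcripts with a positive and 27 with a negative excess. Positive excess was 2.96 for CLC, 1.23 for GANAB, 1.20 for RNASE2, 1.15 for RHEX and 1.14 for FKBP2. Negative excess was -2.57 for FOSB, -2.36 for DUSP1, -2.20 for KLF2, -1.91 for JUN and -1.89 for ANXA1. GANAB (9.45 and 9.95 under the combinatorial treatment against 9.71 and 9.79 under clorgyline, and 9.80 and 9.59 with 5-Aza-CdR against 11.02 and 10.94 in control cells) lost its call in 6 alternatives, with adjusted p values of up to 0.167. RHEX and FKBP2 also lost theirs in 6 (up to 0.172 and 0.182). RNASE2 lost it in 4 and JUN in 2, with adjusted p values of up to 0.145 and 0.0897.

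Between HL60 and T24, 404 transcripts had a higher and 324 a lower difference in HL60. Among genes, the positive differences between lines were 5.99 for CLC, 3.85 for PRG3, 3.46 for DEFA1B, 3.38 for S100A4 and 3.33 for S100A9. The negative ones were -2.92 for IFI27, -2.78 for CBS, -2.52 for TRIB3, -2.47 for INHBE and -2.44 for ZNF682. The low T24 signals of CBS and INHBE left little room for a fall in that line. ZNF682 had 12.81 and 12.62 under the combinatorial treatment in HL60, against 13.51 and 13.59 under clorgyline, with an adjusted p of 0.198 in HL60 alone, and it rose by 1.61 in T24.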

How the results depend on the processing

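With an adjusted p under 0.05 and no fold limit, 2282 transcripts were higher and 2125 lower, 80 had an excess (49 at the main limits) and 3758 differed between lines (728). With 1 probe per gene, 219 were higher and 474 differed between lines, since fewer probes were tested. Leaving out each array gave 330 to 389 transcripts higher, 111 to 184 lower (184 without combinatorial replicate 2) and 617 to 842 that differed between lines. It gave 44 to 167 with an excess, with 167 without 5-Aza-CdR replicate 1, 90 without combinatorial replicate 2 and 74 without control replicate 1. Over all lists, 192 to 261 genes rose and 83 to 144 fell, with 83 without clorgyline replicate 1 and 86 without combinatorial replicate 1. The cause was not tested. With the replicate number as a block, 340 transcripts were higher, 122 lower, 52 had an excess and 729 differed between lines. The replicate numbers were not shown to pair the arrays, since arrays of the same number deviated with r = -0.037 between the combinatorial and clorgyline conditions and -0.072 between combinatorial and control, against 0.176 between clorgyline and control, 0.123 between combinatorial and 5-Aza-CdR, 0.078 between 5-Aza-CdR and control and 0.019 between clorgyline and 5-Aza-CdR. The block moved no count of transcripts by over 1.5 times, though it moved 2 list counts (ribosomal proteins that rose, 2 against 1, and retinoic acid genes that rose, 1 against 2) and lost the call of CD38. Of 139 named genes called in the combinatorial comparison, 108 kept their call in every alternative and 31 lost it in at least 1, and none changed direction. Probes near background limit the fold changes of the antigens, and 2 arrays per condition limit every test.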

Other observations

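Single genes outside the groups described above also moved. The inflammatory cytokine gene TNF had 11.84 and 11.75 under the combinatorial treatment, against 13.19 and 12.95 under clorgyline, and 12.09 and 12.14 with 5-Aza-CdR, against 13.998 and 13.95 in control cells, so that it fell by 1.28 with clorgyline present and by 1.86 without it (limma, adjusted p = 4.57e-06 and 1.63e-07). The chemokine genes CCL2 (1.32) and CCL23 (1.30) rose, and of 51 cytokine, chemokine and NF-kB target genes 10 rose and 4 fell, beside 7.29% and 7.23% of all genes. The number that fell was 1 without clorgyline replicate 1 or combinatorial replicate 1 and 2 without clorgyline replicate 2. CD74, the invariant chain of MHC class II, had 8.56 and 8.64, against 7.58 and 7.57 under clorgyline (1.02 ± 0.08, adjusted p = 7.26e-06), and of 15 MHC class II genes 1 rose and 0 fell (2 and 1 in a fit of all 24 arrays), a share near that of all genes. Among 81 DNA replication and mitosis genes 6 rose and 7 fell, also near the shares of all genes, with CDT1, a replication licensing factor, lowest at -1.51.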
